A study of Ascaris suum with 10 samples.

Results

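The genes described here are those of the pig roundworm Ascaris suum whose level in early embryos stood far above that in every other stage or tissue of a survey of polyadenylated RNA. Members were chosen on the deposited values themselves, as genes of 50 RPKM or more in the embryo column and at least 5-fold above each of the 7 other columns. RPKM is a read number scaled by gene length and by library size. In total 194 of 15446 genes met the rule, which is 1.26% of the table and 7.21% of the 2692 genes whose embryo value reached 50 RPKM, called genes abundant in embryo below. Because the rule used all 8 columns, the levels below are descriptions and support no test.

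The groups came from a North American wild population of worms, with no treatment listed. The embryo column stands for 3 libraries, of embryos incubated for 24 hr (1 cell), 46 hr (1 to 2 cells) and 64 hr (2 to 4 cells). How these were combined is not stated, so the time within early cleavage at which a gene was high could not be read. The other columns have 1 library each, namely the germinal zone of the ovary, the germinal zone of the testis, second-stage larvae of day 7, adult intestine, adult muscle with its hypodermis, and the carcass of females and of males, both listed as muscle, hypodermis, pharynx and neurons. With 1 value per column no replicate error can be given, and each difference is one between these libraries alone. The sources used here state neither the number of animals per library nor gene lengths or read totals, so depth is unknown. Members' identifiers are paired with no gene names in the table, so no gene function is given, the gene lists drawn up for embryonic regulators, cell cycle, chromatin and other groups could be matched to 0 genes, and the labelled tissues could not be checked against known marker genes.

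An early animal embryo begins with RNA that the mother loaded into the oocyte and later adds RNA from its own genome. The ovary germinal zone holds dividing and early meiotic germ cells, upstream of the region where oocytes grow, so its RNA is not the same as that of a mature oocyte. Ascaris eggs are fertilised inside the female and cleave after they have left the host, and parts of the germline genome are lost from somatic cells during early cleavages. In bulk samples such as these, fewer cells of a type and less RNA per cell cannot be told apart.

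Most members were moderately abundant in embryo and a few were very abundant. Their embryo levels ran from 50.4 to 5918.4 RPKM with a median of 107.4 RPKM, and 107 of 194 reached 100 RPKM, 45 reached 200 RPKM and 10 reached 500 RPKM. Together they held 7.46% of the summed RPKM of the embryo column, against 0.425% of larvae, 0.397% of ovary, 0.390% of female carcass, 0.146% of testis, 0.138% of male carcass, 0.101% of muscle and 0.0935% of intestine. The 3 highest members made up 27.0% of the members' own embryo sum and the 10 highest made up 42.3%, so the share of the column rests on few genes.

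The 2 highest members differed in how far they reached into other tissues. ASG07417 stood at 5918.4 RPKM in embryo, against 224.8 in ovary, 47.2 in testis, 60.4 in larvae, 7.4 in intestine, 68.4 in muscle, 336.4 in female carcass and 75.8 RPKM in male carcass. ASG01514 stood at 3239.2 RPKM in embryo, against 33.9 in ovary, 63.4 in testis, 147.8 in larvae, 118.9 in intestine, 146.1 in muscle, 421.9 in female carcass and 149.1 RPKM in male carcass. Both were next highest in female carcass, but ASG07417 was lowest in intestine and ASG01514 lowest in ovary.

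Another 3 members passed 1000 RPKM in embryo, and are named because of that value. ASG14112 had 2596.4 RPKM in embryo, against 215 in ovary, 28.5 in testis, 35.2 in larvae, 136.2 in female carcass and at most 18.2 RPKM in the other adult columns. ASG05173 had 1302.1 RPKM in embryo, against 125.7 in ovary, 28.5 in testis, 13.4 in larvae, 62.4 in female carcass and at most 10 RPKM in the other adult columns. ASG15405 had 1520 RPKM in embryo, against 6 in ovary, 9.9 in testis, 33.3 in larvae, 96.5 in female carcass and at most 28.6 RPKM in the other adult columns. The first pair was higher in ovary than in any further column, whereas ASG15405 was lowest in ovary.

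**Figure D1:**
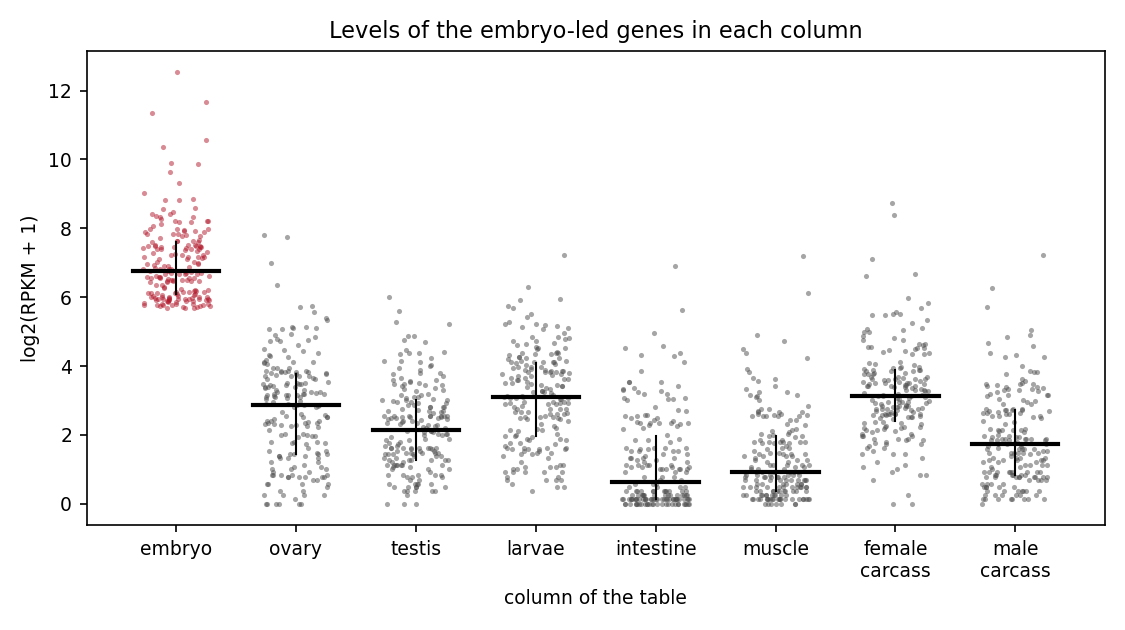
Levels of the 194 embryo-led genes in each of the 8 columns, as log2(RPKM + 1), 1 point per gene; thick bars are medians and thin lines the middle 50% of genes. After embryo (median 107.4 RPKM), female carcass (7.8), larvae (7.65) and ovary (6.35) have the highest medians and intestine the lowest (0.55).

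The embryo level of a member exceeded its next column by a median of 7.96-fold, with quartiles of 6.17 and 12.9. In 75 of 194 members it exceeded every other column at least 10-fold and in 18 at least 20-fold. The next column was female carcass for 69 members, larvae for 56, ovary for 43, testis for 14, male carcass for 6, intestine for 5 and muscle for 1. The widest gaps as plain ratios, given because of their size, belonged to ASG09047 (64.2-fold) and ASG00453 (40.9-fold). ASG09047 stood at 57.8 RPKM in embryo, against 0.9 in ovary, 0.4 in larvae, a listing at 0 in testis and intestine, 0.8 in muscle, a listing at 0 in female carcass and 0.2 RPKM in male carcass. It was the only member under 1 RPKM in all 7 other columns. In every column, 60 members (30.9%) were at 1 RPKM or more, against 40.3% of all genes and 81.3% of genes abundant in embryo.

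Both limits of the rule cut through a continuous range. The members with the lowest embryo levels were ASG06861 (50.4 RPKM) and ASG15196 (51 RPKM), and the highest genes left out by that limit alone were ASG10385 (49.5 RPKM) and ASG08613 (48.8 RPKM). The members with the smallest gap were ASG13716, with 68.1 RPKM in embryo against 13.6 in female carcass, and ASG13738, with 111.2 RPKM in embryo against 22.2 in intestine. Just outside lay ASG07993, at 112.9 RPKM in embryo against 22.8 in muscle, and ASG07128, at 148.4 RPKM in embryo against 30 in larvae. Among the 2498 genes abundant in embryo that were not members, 2243 were above the allowed level in ovary and 2124 in larvae, and 631 in all 7 columns. A single column kept out 235 of them, most often larvae (114) or ovary (89). Over the whole table, the embryo value was at least 5-fold that of intestine for 54.5% of genes, of muscle for 48.7% and of testis for 48.5%. The share was 36.9% for female carcass, 34% for male carcass, 15.3% for larvae and 14.9% for ovary. These shares took any embryo value above 0, so they include genes near the floor. In embryo 3233 of 15446 genes were under 1 RPKM.

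The first question is what stood in the germline before the embryo. Ovary levels of the members spread from a listing at 0 to 224.8 RPKM. The median was 6.35 RPKM, or 5.08% of the embryo level, with quartiles of 1.57% and 11.3%. The rule holds this percentage at 20 or less, and over all 2692 genes at 50 RPKM or more in embryo the median was 48.7%. In ovary 67 members were at 10 RPKM or more, 39 between 5 and 10 RPKM, 55 between 1 and 5 RPKM and 33 under 1 RPKM. At 10 RPKM or more were also 6756 of all 15446 genes and 2469 of the 2692 genes abundant in embryo. The share at 5 RPKM or more was 54.64% of members, against 56.47% of all genes and 95.95% of genes abundant in embryo. The members thus ranged from genes near the floor of the table in ovary to genes with a clear ovary level.

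The 33 members under 1 RPKM in ovary made up 17.0% of members. Of all genes 20.9% were under 1 RPKM in ovary, but only 36 genes (1.34%) of those abundant in embryo were, so all but 3 of these were members. The count was 14 at a limit of 0.5 RPKM and 88 at a limit of 5 RPKM. These 33 genes had a median of 71.1 RPKM in embryo, against 0.5 in ovary, 1.1 in testis, 1.5 in larvae, 0.1 in intestine, 0.4 in muscle, 5.1 in female carcass and 1.1 RPKM in male carcass. Their highest embryo level was 354.2 RPKM, so none of the 10 members at 500 RPKM or more was among them.

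On the log2(RPKM + 1) scale, which gives less weight to values near 0 than a plain ratio does, the widest gaps over ovary were those of ASG00628 and ASG01787. On that scale they also had the widest gaps over testis and over larvae. ASG00628 had 354.2 RPKM in embryo, against a listing at 0 in ovary, 1.2 in testis, 1 in larvae, 0.2 in intestine, 0.5 in muscle, 11.2 in female carcass and 1.1 RPKM in male carcass. ASG01787 stood at 339.9 RPKM in embryo, against 0.4 in ovary, 1.2 in testis, 2 in larvae, 0.4 in intestine, 5.4 in muscle, 19.6 in female carcass and 4.3 RPKM in male carcass. Female carcass was the highest further column for both. At the opposite end of that scale were ASG10234, with 63.8 RPKM in embryo against an ovary value of 12.6, and ASG10679, with 63.1 RPKM in embryo against an ovary value of 12.2. ASG10234 was at 6.5 RPKM or less in every other column, whereas ASG10679 lay between 6 and 11.4 RPKM in all of them.

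The order of the 2 gonads depended on how the columns were scaled. The testis median was 3.45 RPKM, or 2.37% of the embryo level, and 30 members were under 1 RPKM there, which is 15.5% against 33.4% of all genes and 2.12% of genes abundant in embryo. As deposited, ovary exceeded testis for 117 members and fell below it for 72. With the same members, ovary was higher in 138 after scaling to equal sums, but in 89 after upper-quartile scaling and in 53 after scaling by the median of ratios, so the direction turned under both of these. The deposited share of 60.3% compares with 70.8% of all genes and 85.3% of genes abundant in embryo, and the limit set by the rule bears on both gonads. Both gonads were at 1 RPKM or more for 145 members. Both were under it for 14 members, or 7.22%, against 17% of all genes and 0.557% of genes abundant in embryo.

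On the log2(RPKM + 1) scale the members nearest to their embryo level in testis were ASG14371 and ASG04007. ASG14371 had 93.4 RPKM in embryo, against 16.8 in testis and 16.2 in ovary, 7.3 in larvae, 5 in female carcass and at most 1.2 RPKM in the other adult columns. ASG04007 had 53.2 RPKM in embryo, against 8.6 in testis, 6.1 in ovary, 5.1 in larvae, 3.7 in female carcass and at most 0.7 RPKM in the other adult columns. Both thus had little in intestine, muscle and male carcass.

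Genes led by other columns also had values in ovary. Testis-led genes, chosen by the same rule with testis as the leading column (821 genes), had a median ovary value of 3.60% of that in testis, and larvae-led genes (170 genes) one of 9.78% of that in larvae. Whether these values are expression in the ovary or RNA of other origin was not tested. With these 2 percentages of testis and larvae taken from ovary, the median of the members in ovary was 4.30% of the embryo level and 53 members were under 1 RPKM, an alternative chosen after seeing the data. Embryo-led genes in ovary spread more widely about their median than larvae-led genes, with quartiles of 1.57% and 11.3% against 8.40% and 11.5%, but the spread was not tested.

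The second question is what remained after early cleavage. In larvae the members had a median of 7.65 RPKM, or 7.07% of the embryo level, with quartiles of 2.16% and 12.5%. Over genes abundant in embryo the median was 48.4%. Larvae held 83 members at 10 RPKM or more, 43 between 5 and 10 RPKM, 53 between 1 and 5 RPKM and 15 under 1 RPKM. Those 15 were 7.73% of members, against 18.8% of all genes and 0.594% of genes abundant in embryo. The share at 5 RPKM or more in larvae was 64.95% of members, against 58.89% of all genes and 94.21% of genes abundant in embryo. No member was listed at 0, nor was any gene abundant in embryo, against 486 of all 15446 genes. Larvae exceeded ovary for 123 members and fell below it for 69, and with the same members larvae were higher in 117 to 129 under the 3 rescalings. The rescalings divided larvae by 0.82, 1.332 and 1.675 and ovary by 0.8669, 1.282 and 1.593. They treated these 2 columns nearly alike, so this count could hardly change. The deposited share is 63.4%, against 53.7% of all genes and 50.9% of those abundant in embryo. Among the 25 genes that met the rule after scaling by the median of ratios, however, the median was 3.23% in larvae and 3.39% in ovary.

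Larvae and ovary were next compared gene by gene. Across the 194 genes Spearman's rho between the 2 columns was 0.57, a description over genes that share both libraries. The 2 columns were both under 1 RPKM for 12 members and both at 10 RPKM or more for 46. Among the 33 members under 1 RPKM in ovary none reached 10 RPKM in larvae, and among the 15 under 1 RPKM in larvae none reached 10 RPKM in ovary. In between, 37 members had 10 RPKM or more in larvae with 1 to 10 RPKM in ovary, and 21 had 1 to 10 RPKM in larvae with 10 RPKM or more in ovary. The 12 members low in both had a median embryo level of 60.7 RPKM and the 46 high in both one of 179.1 RPKM. A gene with a high embryo level may hold more RPKM elsewhere and still meet the rule, so this order is partly set by the choice of members.

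**Figure D2:**
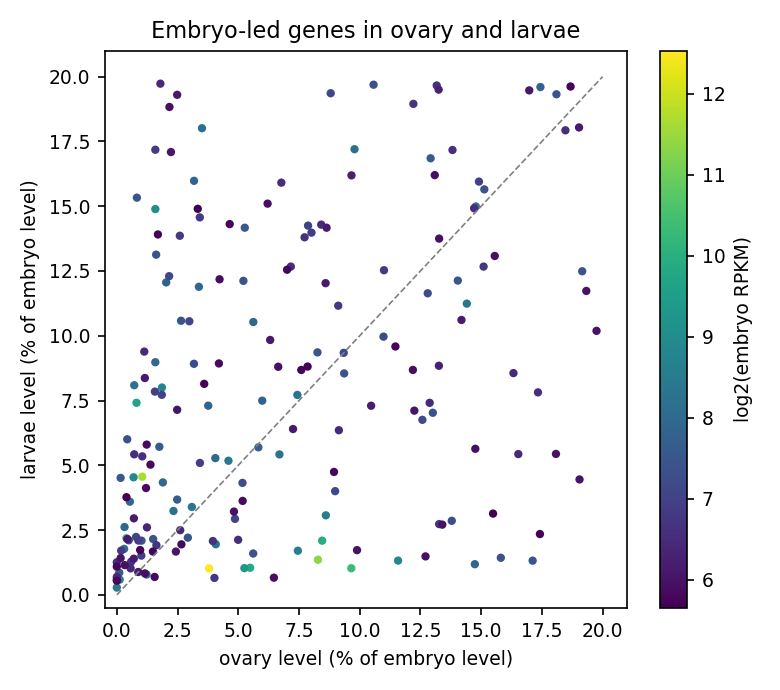
Level in larvae (vertical axis) against level in ovary (horizontal axis) of the 194 embryo-led genes, each as a percentage of the embryo level, coloured by log2 embryo RPKM; the dashed line marks equal percentages and the rule ends both axes at 20. Points fill the square, with 123 genes above the line and 69 below it, and most of the highest embryo levels lie in its lower part.

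On the log2(RPKM + 1) scale the members closest to their embryo level in larvae were ASG10173, with 53 RPKM in embryo against 10.4 in larvae and 9.9 in ovary, and ASG15278, with 68.3 RPKM in embryo against 13.3 in larvae and 11.6 in ovary. They differed in adult tissue, where ASG10173 had between 1.9 and 8.9 RPKM and ASG15278 at most 1.8 RPKM.

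With members grouped by embryo level, the most abundant group had the lowest median percentage in larvae. The median in larvae was 7.11% of the embryo level for the 63 members between 50 and 75 RPKM, 8.19% for the 24 between 75 and 100 RPKM, 8.73% for the 62 between 100 and 200 RPKM, 5.28% for the 35 between 200 and 500 RPKM and 1.72% for the 10 at 500 RPKM or more. The last step rests on 10 genes, 1 of which stood at 14.9%. In ovary the same 5 groups had medians of 6.21%, 7.79%, 5.19%, 3.51% and 4.53%, and in testis of 3.12%, 3.91%, 2.68%, 1.78% and 1.18%.

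Adult somatic levels were low except in female carcass. Median levels were 7.8 RPKM in female carcass (6.29% of the embryo level), 2.3 RPKM in male carcass (1.87%), 0.9 RPKM in muscle (0.783%) and 0.55 RPKM in intestine (0.458%). Genes abundant in embryo had medians of 24.1% in female carcass, 20.6% in male carcass, 15.5% for muscle and 16.1% for intestine. In female carcass only 7 members were under 1 RPKM (3.61%, against 25.1% of all genes and 0.483% of genes abundant in embryo). Under that level were also 105 members in intestine (54.1%, against 44.2% of all genes and 15.6% of genes abundant in embryo), 100 in muscle (51.5%, against 35.8% and 8.77%) and 59 in male carcass (30.4%, against 24.4% and 3.86%). All 4 adult columns were at 1 RPKM or more for 67 members (34.5%), against 46.9% of all genes and 81.6% of genes abundant in embryo.

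Measured against the highest adult somatic column on the log2(RPKM + 1) scale, the widest gaps were those of ASG15243 and ASG15214. ASG15243 had 142.4 RPKM in embryo, against 12.8 in ovary, 19.5 in testis, 5.7 in larvae and 1.7 RPKM in female carcass, with at most 0.3 RPKM in the other adult columns. ASG15214 had 162.2 RPKM in embryo, against 21.1 in ovary, 20 in testis, 11.4 in larvae and 2.7 RPKM in female carcass, with at most 0.4 RPKM in the other adult columns. Both gonads thus carried these 2 transcripts at a level that the body wall and intestine libraries did not. The narrowest gaps over adult soma on that scale were those of ASG13716 and ASG13738, which also lay nearest to the 5-fold limit and reached it through female carcass and intestine.

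Traces of the members in female carcass stood above those in male carcass, although the labels list the same tissues for both and name neither uterus nor eggs. Female carcass was above male carcass for 172 members (88.7%), below it for 21 and equal for 1. Over all genes 47.9% were higher in female carcass, and over genes abundant in embryo 65.9% were. After adding 1 RPKM to both columns, the female value was at least 2-fold the male one for 122 members (62.9%), against 12.2% of all genes and 20.3% of genes abundant in embryo. The male value was at least 2-fold the female one for 3 members. Female carcass was the highest adult somatic column for 161 members (83.0%), against 30.7% and 45.8%. The rule capped both carcass columns at the same fraction of embryo and did not compare them, but 1 library of each sex gives no test of the difference.

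**Figure D3:**
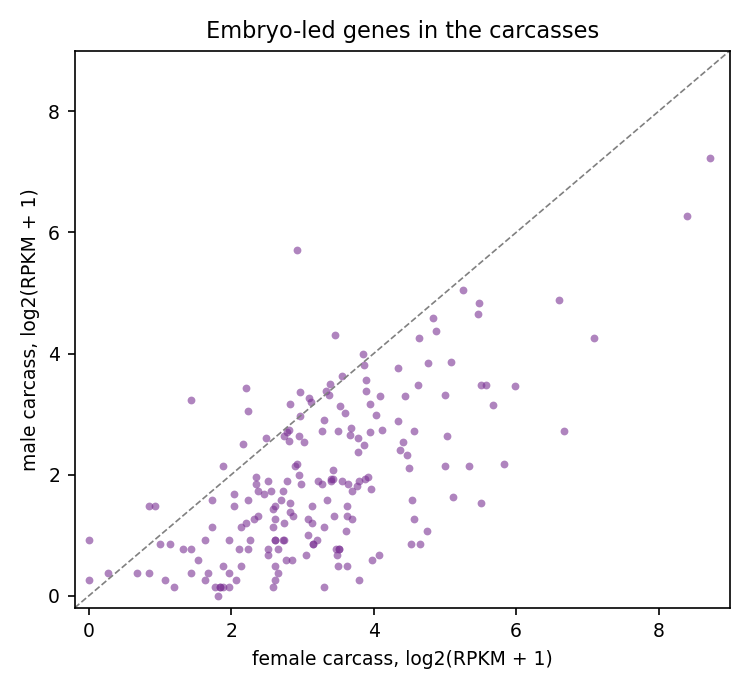
Level in male carcass against level in female carcass of the 194 embryo-led genes, both as log2(RPKM + 1), with the dashed line at equal levels. Of the points, 172 lie on the female side of the line and 21 on the male side.

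On the log2(RPKM + 1) scale, the 2 members with the largest difference in each direction between the carcasses were as follows. ASG14823 had 44.3 RPKM in female carcass against 1.9 in male carcass, beside 457.3 in embryo, 8.5 in ovary, 11.5 in testis, 36.6 in larvae, 4.1 in intestine and 0.8 RPKM in muscle. ASG00956 had 100.9 RPKM in female carcass against 5.6 in male carcass, beside 936.3 in embryo, 51.4 in ovary, 10.9 in testis, 9.8 in larvae, 0.5 in intestine and 0.6 RPKM in muscle. In both genes ovary, at 8.5 and 51.4 RPKM, lay below female carcass. ASG13999 had 6.6 RPKM in female carcass against 51.6 in male carcass, beside 296.9 RPKM in embryo, and ASG09126 had 1.7 against 8.4, beside 51 RPKM in embryo. Testis stood at 1.4 and 1.8 RPKM for that pair.

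Across members, the column whose levels ranked most like those of embryo was female carcass. Spearman's rho with embryo was 0.69 for female carcass, 0.56 for larvae, 0.48 for testis, 0.42 for ovary, 0.39 for male carcass, 0.30 for intestine and 0.30 for muscle. The percentage in female carcass lay within 2-fold of its median for 136 members (70.1%), against 90 for larvae, 83 for testis, 81 for male carcass and 72 for ovary. By embryo level, the median in female carcass was 7.59%, 5.49%, 6.16%, 7.35% and 5.47% over the 5 groups from 50 RPKM upward, and in male carcass 2.27%, 1.85%, 1.88%, 1.76% and 1.02%. Male carcass correlated best with muscle (rho 0.84), with which it shares tissue by its label. Female carcass, listed with the same tissues as male carcass, had a rho of 0.52 with muscle and 0.60 with male carcass. All these are descriptions over genes that share libraries, and no difference between them was tested. The rule let each column rise with the embryo level and capped its percentage. A positive rho with embryo and the spread of the percentages are therefore partly set by the choice of members.

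**Figure D4:**
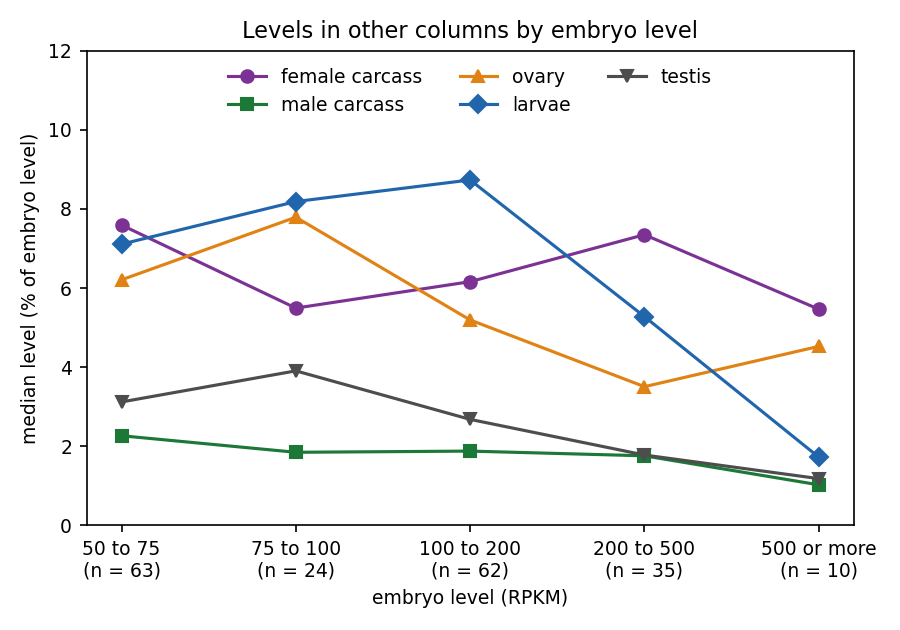
Median level of the embryo-led genes in 5 other columns, as a percentage of the embryo level, by 5 classes of embryo level in RPKM; n is the number of genes in a class, and the last class holds 10. The female carcass median stays between 5.47% and 7.59%, whereas the larvae median is 8.73% at 100 to 200 RPKM and 1.72% at 500 RPKM or more.

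The female trace was also seen in genes that the other adult tissues hardly showed. Intestine, muscle and male carcass were all under 1 RPKM for 50 members. Of these 50, female carcass was at 1 RPKM or more in 48 (96%), larvae in 42, ovary in 36 and testis in 36. Of all genes under 1 RPKM in those 3 columns, 19.4% were at 1 RPKM or more in female carcass, and of the genes abundant in embryo 94.7% were. Without the members, that share was 24 of 26 genes (92.3%). Among ovary-led genes it held for 6 of 12, among larvae-led genes for 6 of 35 and among testis-led genes for 19 of 325 (5.85%). In the 50 members the median was 4.7 RPKM in female carcass. Their medians of 0.5 RPKM in male carcass, 0.2 RPKM in muscle and 0.1 RPKM in intestine were held under 1 RPKM by how the 50 were picked. The gap between female carcass and these 3 columns is therefore no separate result. Their female median was 5.16% of the embryo level with quartiles of 3.32% and 6.58%, a narrower range than the 4.24% and 10.7% of all members. The presence of a trace in female carcass was therefore not particular to the embryo-led genes, but was shared with other genes high in embryo.

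Members low in ovary had a female trace as well. Of the 33 members under 1 RPKM in ovary, 31 (93.9%) were at 1 RPKM or more in female carcass. In 30 of the 33 (90.9%), female carcass was above male carcass, against 88.7% of all members, 65.9% of genes abundant in embryo and 47.9% of all genes. Under 1 RPKM in female carcass were 3.61% of all members, 0.483% of genes abundant in embryo and 25.1% of all genes. Shares over all genes low in ovary were not computed. The median of the 33 members in female carcass was 5.03% of the embryo level, and that of the 67 members at 10 RPKM or more in ovary was 6.18%. Only 2 members were listed at 0 in female carcass, ASG09047 and ASG05245. ASG05245 had 195.5 RPKM in embryo, against 10.3 in ovary, 13.7 in testis, 27.7 in larvae, 4.2 in intestine, 0.3 in muscle and 0.9 RPKM in male carcass, so its listing at 0 in female carcass stood beside a clear level in larvae and both gonads.

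Genes led by other columns left different traces. Embryo-led genes stood in female carcass at a median of 6.29% and in male carcass at 1.87% of their leading level. Ovary-led genes (70) stood at 4.53% in female and 0.876% in male carcass, larvae-led genes at 1.52% and 2.57%, and testis-led genes at 0.136% and 0.755%. The share of genes higher in female than in male carcass was 88.7% for embryo-led, 78.6% for ovary-led, 32.9% for larvae-led and 12.8% for testis-led genes. Seen from the embryo column, ovary-led genes stood there at 4.21% of their ovary level, larvae-led genes at 2.75% of their larval level and testis-led genes at 1.00% of their testis level.

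Identifier numbers, which the rule did not use, were unevenly represented, a pattern noticed in these data and not tested. Members made up 1.08% of the 15000 genes numbered up to 15000 and 7.17% of the 446 genes with higher numbers, where 32 of the 194 members lay. Among genes abundant in embryo, 32 of 83 in that last stretch were members (38.6%), against 162 of 2609 in the rest (6.21%), and the highest share in any other stretch of 1000 numbers was 11.2%. The last stretch held 3 of 70 ovary-led genes, 3 of 170 larvae-led genes and 18 of 821 testis-led genes. It held 16.5% of members and 2.89% of all genes. The 32 members there had medians of 113.7 RPKM in embryo, against 8.4 in ovary, 5.9 in testis and 6.55 in larvae. The other 162 had medians of 105.7 RPKM in embryo, against 5.65 in ovary, 3 in testis and 7.8 in larvae. Testis exceeded larvae in 16 of the 32 and in 23 of the 162, and this share was not computed over other genes. All 446 genes of the stretch had medians of 3 RPKM in testis and 5.1 RPKM in larvae, against 3.3 and 8.6 RPKM over all genes. Whether the count belongs to the members or to the stretch was not tested. The sources used here do not say what the numbering follows, and gene copies or fragments that share reads could not be looked for without sequences.

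**Figure D5:**
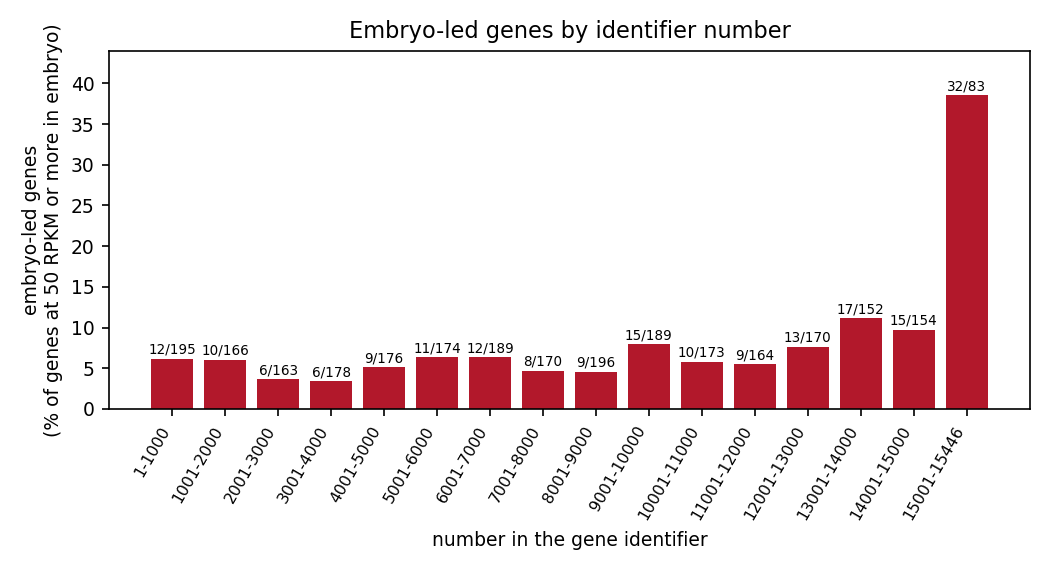
Embryo-led genes as a percentage of the genes abundant in embryo (50 RPKM or more), by stretches of the number in the gene identifier; labels give both counts. The last stretch stands at 38.6% (32 of 83), and all others at 11.2% or less.

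Members with neighbouring numbers were few. In 7 cases a pair of members had consecutive numbers, and their levels were not always alike, as shown by 2 pairs picked after their values were seen. ASG09951 and ASG09952 had 60.4 and 86.5 RPKM in embryo, with 0.7 RPKM and a listing at 0 in ovary, and 0.5 and 0.6 RPKM in larvae. ASG12193 and ASG12194 had 71.1 and 137.4 RPKM in embryo, with 0.5 and 12.1 RPKM in ovary, and 2.1 and 26.6 RPKM in larvae. The first pair was alike in these 3 columns but differed in testis (5.5 and 0.3 RPKM) and male carcass (9.8 and 1.8 RPKM). The second pair differed in both ovary and larvae.

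How many genes count as embryo-led depended on the scaling of the columns. Scaling by the median of ratios raised the other columns relative to embryo by 0.58 (larvae) to 2.19 (testis) on the log2 scale, and 25 genes then met the rule. After scaling by the upper quartile 60 did. All 25 and all 60 were among the 194 members. This was fixed in advance, because both scalings lowered embryo and raised every other column relative to it. Scaling to equal sums gave 215 genes, of which 186 were members. The embryo column was itself divided by 2.51 with the median of ratios, 1.845 with the upper quartile and 0.8479 with equal sums. The limit of 50 RPKM was kept on the rescaled values, so these counts mix a shifted embryo limit with the changed ratios.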

How the data were processed

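Polyadenylated RNA was sequenced in 10 libraries, and 1 deposited table of RPKM values for 15446 genes in 8 columns, rounded to 1 decimal, was used. The authors' RPKM unit is taken from the name they gave the table. The submitters' processing notes list TopHat and Cufflinks without versions. Genome build and annotation: not given in the sources used here. Whether RPKM counted reads or fragments is unknown. Columns were matched to samples by title. The single embryo column is the authors' value for 3 libraries. Columns from outside the series numbered 0.

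The rule for members, its counts and its medians were computed with Python 3.11.15 and pandas 2.3.3, and the rule was checked on simulated data. The simulated members were built to meet the rule and the other genes to miss it. The check therefore covers only whether the rule was computed as written. Detection meant a level of 1 RPKM or more. Logarithms used a pseudocount of 1 RPKM. With 1 value per column, no p-value, interval or detection limit could be given. Identifiers are named as the 2 at each end of each measure, and others are said to be chosen by value. The members and lists were chosen with earlier results of these data known. Alternatives covered 3 rescalings, other levels, folds, pseudocounts and detection limits, and each column left out.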

Additional observations from a re-analysis of the deposited data

How the results depend on the processing

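Counts and medians are called moved here when they differ by more than 1.5-fold from those reported. The 3 rescalings changed the embryo column too, while the limits of 50 and 1 RPKM were kept. Their counts and medians therefore also reflect shifted limits. Of the alternatives run, 69 values did not move, 41 did and 2 turned their direction. Those 2 are ovary above testis, which held for 117 members as deposited but for 89 with the upper quartile and 53 with the median of ratios, chosen after seeing the data. Female carcass was above male carcass for most members in the 11 alternatives that recomputed it, with 62.9% the lowest share, for a 2-fold difference. The 194 members became 60 with upper-quartile scaling, 25 with scaling by the median of ratios, 107 at a minimum of 100 RPKM, 381 at 1 RPKM, 420 at a 3-fold and 75 at a 10-fold gap, and 308 with larvae left out of the rule. Members under 1 RPKM in ovary became 14 with upper-quartile scaling, 5 with the median of ratios, 65, 11 and 159 at minimums of 20, 100 and 1 RPKM, and 14 and 88 at detection limits of 0.5 and 5 RPKM. The single member under 1 RPKM in all 7 other columns became 0 with each of the 3 rescalings, at 100 RPKM and at a limit of 0.5 RPKM, 67 at a minimum of 1 RPKM and 19 at a limit of 5 RPKM. Members higher in female carcass were 56 of 60 with upper-quartile scaling (93.3%) and 23 of 25 with the median of ratios (92%). They were 98 of 107 at 100 RPKM (91.6%) and 286 of 381 at 1 RPKM (75.1%). At 3-fold they were 333 of 420 (79.3%) and at 10-fold 71 of 75 (94.7%), against 88.7% as reported. Medians moved as follows. Testis became 4.19% and 5.01%, female carcass 11.6% and 13.1%, and the highest adult soma 11.9% and 13.1%, with the upper quartile and the median of ratios, and larvae became 3.23% with the median of ratios. At 3-fold ovary became 12.9%, testis 4.81% and larvae 13.8%, and at 10-fold 1.75%, 1.54% and 2.60%, which the gap itself sets. Other causes were not tested. Alternatives chosen after seeing the data gave a female carcass median of 5.16% in the 50 members low in the other adult columns and 4.40% after taking male carcass off, and 53 members under 1 RPKM in ovary after taking the testis and larvae percentages off. No paired analysis was possible because each column holds 1 value. Depth is unknown, so values near 0.1 RPKM cannot be told from 0.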
